A study of Mus musculus with 16 samples.

Results

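Glucose and fructose enter a hepatocyte through transporters, are trapped by phosphorylation and run through phosphofructokinase and pyruvate kinase, and several of these steps have one gene typical of adult liver and another typical of fetal or dividing cells. The genes described here are 9 such steps in mouse liver after partial hepatectomy (PHx, surgical removal of part of the liver, after which the remnant grows back). The rule that picks them names gene symbols and uses no measured value, although earlier results of these data were known when it was written: Slc2a2, Khk, Pfkl, Pfkfb1 and Pklr as liver-type genes, and Slc2a1, Hk2, Pfkfb3 and Pkm as genes typical of fetal or proliferating cells. Each was read from the probe set annotated with its symbol, and 8 of the 9 have such a probe set, 1 each, among 30142 genes tested. Pfkfb1 has none under its symbol and is not analysed here, so 4 liver-type genes are set beside 4 fetal or proliferative ones.

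Total RNA of whole liver was labelled with biotin and measured on Affymetrix arrays, 16 in all. The 4 groups of 4 arrays were sham-operated Ppara fl/fl mice, sham-operated PparaΔHep mice, Ppara fl/fl mice after PHx and PparaΔHep mice after PHx, all at 12 h. Ppara fl/fl mice carry floxed alleles of Ppara, which encodes the nuclear receptor PPARα that drives fatty acid oxidation genes, and are called wild type by the submitters. PparaΔHep mice lack Ppara function in hepatocytes only, so other liver cells keep the gene. The sources used here give neither the Cre driver nor the ages of the mice, nor whether each array came from a mouse of its own. A level below is the deposited RMA value on the log2 scale, given for arrays 1 to 4 of a group (numbers given in sample order, which pair nothing), and a difference of 1 is a doubling.

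In adult hepatocytes glucose passes the low-affinity transporter encoded by Slc2a2 in both directions, and ketohexokinase (Khk) traps fructose by phosphorylation. The flux then depends on liver phosphofructokinase (Pfkl), on the bifunctional enzymes (Pfkfb genes) that set the level of its activator, and on liver pyruvate kinase (Pklr), whose gene is driven by the glucose-sensing factor ChREBP (Mlxipl). Fetal liver, tumours and many dividing cells use Slc2a1, Hk2, Pfkfb3 and the M-type pyruvate kinase gene Pkm in place of these.

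Libraries were compared before the genes. Within groups, arrays correlated at 0.986 to 0.997 over the 30142 genes tested, and no pair of arrays was identical over all probe sets. The median over all probe sets was 2.05 ± 0.02 in sham and 2.17 ± 0.02 in PHx arrays (SD, n = 8 each), while antigenomic background probe sets had a median of 1.24 ± 0.03 in sham and 1.01 ± 0.04 in PHx arrays. The operation therefore moves with the brightness of the arrays, and the part of that shift in the differences below was not tested beyond the other scalings given beside them. Ppara itself read 6.45, 7.02, 6.99 and 6.77 in sham fl/fl arrays and 6.29, 6.43, 6.43 and 6.05 in sham ΔHep arrays, which do not overlap. After PHx it read 6.97, 6.08, 5.68 and 7.24 in fl/fl and 6.26, 5.02, 5.28 and 4.70 in ΔHep, where ΔHep array 1 lay above fl/fl arrays 2 and 3. The genotype difference of Ppara was not called by limma (-0.50 ± 0.33 after sham, adjusted p = 0.681; -1.17 ± 0.33 after PHx, adjusted p = 0.326). The position of its probes relative to the deleted part is unknown here, so these values check the genotype only in part.

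Cell type markers moved with the operation as well. The mean level of 11 of 12 listed hepatocyte markers was 10.29 ± 0.05 and 10.30 ± 0.02 in the sham groups (fl/fl, then ΔHep; SD, n = 4) and 10.13 ± 0.04 and 10.14 ± 0.07 after PHx, so hepatocyte RNA was present in every group. This mean was nevertheless lower on every PHx array (at most 10.21) than on every sham array (at least 10.22). Kupffer cell and macrophage markers had means of 5.35 ± 0.25 and 5.47 ± 0.23 in sham and 5.05 ± 0.17 and 5.02 ± 0.19 after PHx, with 4 of 11 called lower in fl/fl and 8 of 11 in ΔHep, where 20.8% and 17.5% of all genes tested were called lower. Sinusoidal endothelial markers had means of 5.48 ± 0.04 and 5.45 ± 0.05 in sham and 5.20 ± 0.09 and 5.06 ± 0.09 after PHx, with 5 of 9 called lower and 1 called higher in each genotype. The neutrophil list ranged from 2.42 to 2.86 over the sham arrays and from 2.37 to 3.32 over the PHx arrays, the last being PHx fl/fl array 2. In whole liver, fewer cells of a type and less RNA per cell cannot be told apart, and the part of these shifts in the results below was not tested.

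The promoters of 4 of the 5 genes called with PHx over both genotypes are shown, leaving out that of Hk2. Of the regions shown, 3 hold known motifs, while that of Pfkl holds none of those searched. Sequences are the 250 bases before an annotated start, from RefSeq on GRCm38.p6, read 5′ to 3′ on the gene's strand, with motif matches in capitals. The motifs searched on both strands were the E-box CACGTG, the HIF core ACGTG (which lies inside every E-box match), the HNF1 core GTTAAT, the GC box GGGCGG and the carbohydrate response element, the paired E-box-like site that ChREBP reads.
Pklr, second start, chr3:89136373-89136622, plus strand: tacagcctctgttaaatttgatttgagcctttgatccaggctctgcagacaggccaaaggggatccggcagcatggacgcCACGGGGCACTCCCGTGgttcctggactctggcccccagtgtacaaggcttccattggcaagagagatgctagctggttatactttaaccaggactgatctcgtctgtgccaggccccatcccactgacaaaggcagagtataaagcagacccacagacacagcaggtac
Pkm, first start, chr9:59656326-59656575, plus strand: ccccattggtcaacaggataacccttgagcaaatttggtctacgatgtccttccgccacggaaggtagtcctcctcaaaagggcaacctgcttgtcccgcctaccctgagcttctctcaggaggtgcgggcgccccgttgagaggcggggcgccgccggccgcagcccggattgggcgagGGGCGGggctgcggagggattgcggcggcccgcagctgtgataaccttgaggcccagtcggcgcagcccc
Pfkfb3, first start, chr2:11553930-11554179, minus strand: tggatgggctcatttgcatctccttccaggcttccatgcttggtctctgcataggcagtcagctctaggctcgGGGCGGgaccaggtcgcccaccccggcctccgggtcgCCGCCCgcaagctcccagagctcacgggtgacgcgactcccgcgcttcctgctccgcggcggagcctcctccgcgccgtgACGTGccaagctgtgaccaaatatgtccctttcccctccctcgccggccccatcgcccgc
Pfkl, chr10:78009808-78010057, minus strand: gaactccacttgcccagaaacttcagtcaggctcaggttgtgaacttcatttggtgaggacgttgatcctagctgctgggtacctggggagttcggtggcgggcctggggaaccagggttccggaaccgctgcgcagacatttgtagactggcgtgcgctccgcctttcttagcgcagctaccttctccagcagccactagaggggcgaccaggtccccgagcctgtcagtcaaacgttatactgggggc
The Pklr region holds a carbohydrate response element 170 bases before its start, a match found in 32 of 32851 promoters (0.1%) and in 1 of the 9 genes named above. The first Pfkfb3 region holds a HIF core 60 bases before the start and GC boxes 177 and 140 bases before it, and the first Pkm region holds a GC box 70 bases before its start. The Pfkl region holds none of these letters. The region of Hk2, which was called lower and is not printed, holds HIF cores 226 and 52 bases before the start. It also holds GC boxes 201, 106 and 38 bases before the start. Over the 15 promoters of the 9 genes, the HIF core occurred in 5 genes (Slc2a1, Hk2, Pfkfb3, Pkm and Khk; 16.57% of all promoters hold it), the GC box in 6 (32.74% of all promoters), the E-box in Pfkfb3 and Khk (6.02%) and the HNF1 core in Khk and Pfkfb1 (6.43%). A gene was counted when any of its starts held a match, whereas the shares are per single promoter, so counts and shares are unlike measures. Pkm, for example, holds the HIF core before its second start only. A match is a description of letters in this window only.

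After PHx, with both genotypes pooled, the liver-type genes Pfkl and Pklr and the proliferative gene Hk2 were lower and the proliferative genes Pfkfb3 and Pkm were higher, while the transporters Slc2a1 and Slc2a2 and the fructose kinase Khk were not called in either direction. Differences were tested with limma over all 30142 genes, and a gene is called where the Benjamini-Hochberg adjusted p lies under 0.05. With both genotypes together, 5 of the 8 genes were called, 2 higher and 3 lower, against 46.0% of all genes tested (19.3% higher and 26.6% lower), so the count says little of these genes as a set. Within fl/fl, 2 of 8 were called, both lower, where 32.7% of all genes were called (11.9% higher, 20.8% lower). Within ΔHep, 2 of 8 were called, both lower, where 32.3% of all genes were called (14.8% higher, 17.5% lower). The comparison over both genotypes uses the same arrays as the other 2 and is no independent evidence. The median difference of the 8 genes was 0.060 in fl/fl and 0.020 in ΔHep, beside -0.040 and 0.0070 for all genes.

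**Figure D1:**
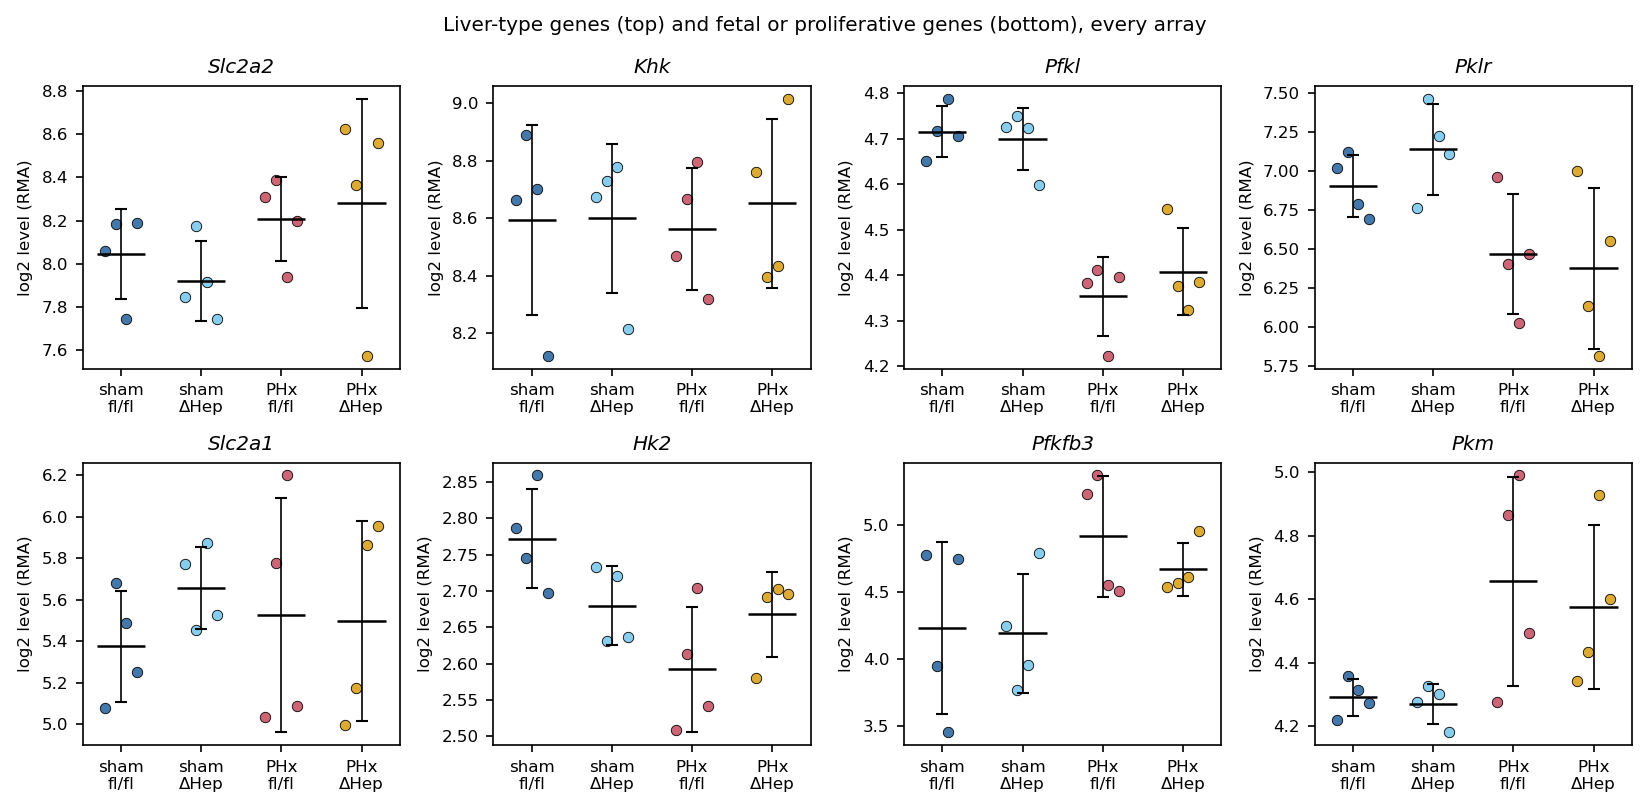
Level (RMA value, log2 scale) of the 8 measured genes on every array, liver-type genes in the upper row and fetal or proliferative genes in the lower row; each point is an array, the long bar the mean and the whisker the SD of 4 arrays. Each panel has its own axis, which does not start at 0. The 8 PHx arrays of Pfkl, at 4.22 to 4.55, lie under all 8 sham arrays, at 4.60 to 4.79, and in the other panels PHx and sham arrays overlap when both genotypes are pooled.

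Sugar entry comes first. Slc2a2, which encodes the transporter GLUT2 of hepatocytes, read 8.06, 8.18, 7.74 and 8.19 in sham fl/fl arrays, 7.85, 8.18, 7.92 and 7.74 in sham ΔHep, 8.31, 8.39, 7.94 and 8.20 in PHx fl/fl and 8.62, 8.36, 7.58 and 8.56 in PHx ΔHep. In each genotype 3 of the 4 PHx arrays lay above every sham array, and array 3 fell among or below the sham arrays. The difference was 0.16 ± 0.19 in fl/fl and 0.36 ± 0.19 in ΔHep (limma estimate ± SE, adjusted p = 0.536 and 0.165), and 0.26 over both, with a 95% confidence interval of -0.025 to 0.55. It was called higher in ΔHep with cyclic loess scaling (0.55, adjusted p = 0.0478) and without PHx ΔHep array 3 (0.59, adjusted p = 0.00443), within a range of adjusted p from 0.00443 to 0.377 over 15 alternatives. Over both genotypes it was called higher under the same changes (0.44, adjusted p = 0.0167, and 0.38, adjusted p = 0.00364), within a range of 0.00364 to 0.26 over 22 alternatives. PHx ΔHep array 3 had the lowest Slc2a2 of its group, so leaving it out had to enlarge the rise. No conclusion is drawn from the calls gained that way.

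Slc2a1, which encodes GLUT1, the transporter of fetal and most dividing cells, read 5.08, 5.68, 5.49 and 5.25 in sham fl/fl, 5.77, 5.46, 5.87 and 5.52 in sham ΔHep, 5.03, 5.78, 6.20 and 5.09 in PHx fl/fl and 5.0, 5.18, 5.87 and 5.95 in PHx ΔHep. The PHx arrays fell on both sides of the sham arrays. Their SD was 0.56 in fl/fl and 0.48 in ΔHep, beside 0.27 and 0.20 after sham. The differences were 0.15 ± 0.26 in fl/fl and -0.16 ± 0.26 in ΔHep (limma adjusted p = 0.693 and 0.683), with 95% intervals of -0.40 to 0.70 and -0.71 to 0.40, and the ΔHep sign turned with cyclic loess scaling (0.044, adjusted p = 0.918; 0.381 to 0.987 over 15 alternatives). On the same array, Slc2a1 minus Slc2a2 moved by -0.015 in fl/fl and -0.52 in ΔHep from sham to PHx, with overlap in both.

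Of the kinases that trap sugar, Khk, which encodes ketohexokinase and phosphorylates fructose, was called in no comparison. It read 8.66, 8.89, 8.70 and 8.12 in sham fl/fl, 8.68, 8.73, 8.78 and 8.21 in sham ΔHep, 8.47, 8.67, 8.80 and 8.32 in PHx fl/fl and 8.76, 8.40, 8.44 and 9.02 in PHx ΔHep. All 4 groups overlapped, each with at least 1 array at or under 8.40. The difference over both genotypes was 0.011 ± 0.13 (limma adjusted p = 0.954), with a 95% interval of -0.26 to 0.28. Its sign changed with the scaling, from -0.031 to 0.15 in fl/fl with cyclic loess and from 0.052 to -0.076 in ΔHep with array medians subtracted.

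Hk2, the hexokinase of muscle, tumours and dividing cells, had a mean level at the 49.1 percentile of the genes tested. It read 2.79, 2.75, 2.86 and 2.70 in sham fl/fl, 2.73, 2.63, 2.72 and 2.64 in sham ΔHep, 2.51, 2.61, 2.70 and 2.54 in PHx fl/fl and 2.58, 2.69, 2.70 and 2.70 in PHx ΔHep. The PHx fl/fl group had the lowest mean, and only array 3 of them reached the sham fl/fl range. Hk2 fell by 0.18 ± 0.05 in fl/fl (limma adjusted p = 0.0175) and differed by -0.012 ± 0.05 in ΔHep (adjusted p = 0.886). With array medians subtracted it was called lower in ΔHep too (-0.14, adjusted p = 0.0303; 0.0303 to 0.989 over 14 alternatives). Over both genotypes Hk2 fell by 0.096 ± 0.04 (adjusted p = 0.0477), a call lost under 13 of 21 alternatives, cyclic loess and the omission of any of 12 single arrays, with adjusted p from 0.000659 to 0.0975. The fl/fl call was lost with cyclic loess scaling (-0.11, adjusted p = 0.113), with only the 2 groups in the fit (adjusted p = 0.0525) and when either array 3 of sham fl/fl or array 1 of PHx fl/fl was left out, in a range of 0.00451 to 0.113 over 14 alternatives. The fall of the background probe sets after PHx moves the same way as Hk2, and its part in this difference was not tested.

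At the phosphofructokinase step the liver-type gene fell. Pfkl, the liver subunit of phosphofructokinase, read 4.65, 4.72, 4.79 and 4.71 in sham fl/fl and 4.72, 4.75, 4.72 and 4.60 in sham ΔHep. After PHx it read 4.38, 4.41, 4.22 and 4.40 in fl/fl and 4.55, 4.38, 4.32 and 4.39 in ΔHep. Every PHx array was lower than every sham array. PHx and sham arrays lay apart in this way, in either direction, for 15.3% of all genes tested and for 1 of the 8 genes here. Pfkl fell by 0.36 ± 0.06 in fl/fl (limma adjusted p = 0.00035) and by 0.29 ± 0.06 in ΔHep (adjusted p = 0.00165), and by 0.33 ± 0.04 over both, a 1.25-fold lower level. The ΔHep call was lost with cyclic loess scaling (-0.13, adjusted p = 0.12) and held under the other 14 alternatives (adjusted p from 7.81e-05). Its promoter, printed above, holds none of the motifs searched.

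Pfkfb3, the inducible bifunctional enzyme that raises the activator of phosphofructokinase in proliferating and hypoxic cells, went the other way. It read 4.78, 3.95, 3.45 and 4.75 in sham fl/fl, 4.24, 3.77, 3.96 and 4.79 in sham ΔHep, 5.23, 5.37, 4.55 and 4.51 in PHx fl/fl and 4.54, 4.57, 4.61 and 4.96 in PHx ΔHep. No PHx array was under 4.51, whereas 5 of the 8 sham arrays were, and sham fl/fl arrays 1 and 4 and sham ΔHep array 4 lay within the PHx range. The differences were 0.68 ± 0.30 in fl/fl and 0.48 ± 0.30 in ΔHep (limma adjusted p = 0.0886 and 0.236). The fl/fl difference was called without sham fl/fl array 1 (0.87, limma adjusted p = 0.0471, in a range of 0.0471 to 0.276 over 15 alternatives). That array had the highest Pfkfb3 of its group, so its omission had to enlarge the difference, and no conclusion is drawn from that call. Over both genotypes Pfkfb3 rose by 0.58 ± 0.21 (adjusted p = 0.033), with a 95% interval of 0.14 to 1.03. That call held under 14 of 22 alternatives and was lost with array medians subtracted (0.50, adjusted p = 0.0564) and without any of 7 single arrays: arrays 2 and 3 of sham ΔHep, arrays 2 and 3 of sham fl/fl, array 4 of PHx ΔHep and arrays 1 and 2 of PHx fl/fl. Over the 22 alternatives the estimate stayed between 0.45 and 0.73, with adjusted p up to 0.0693.

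**Figure D2:**
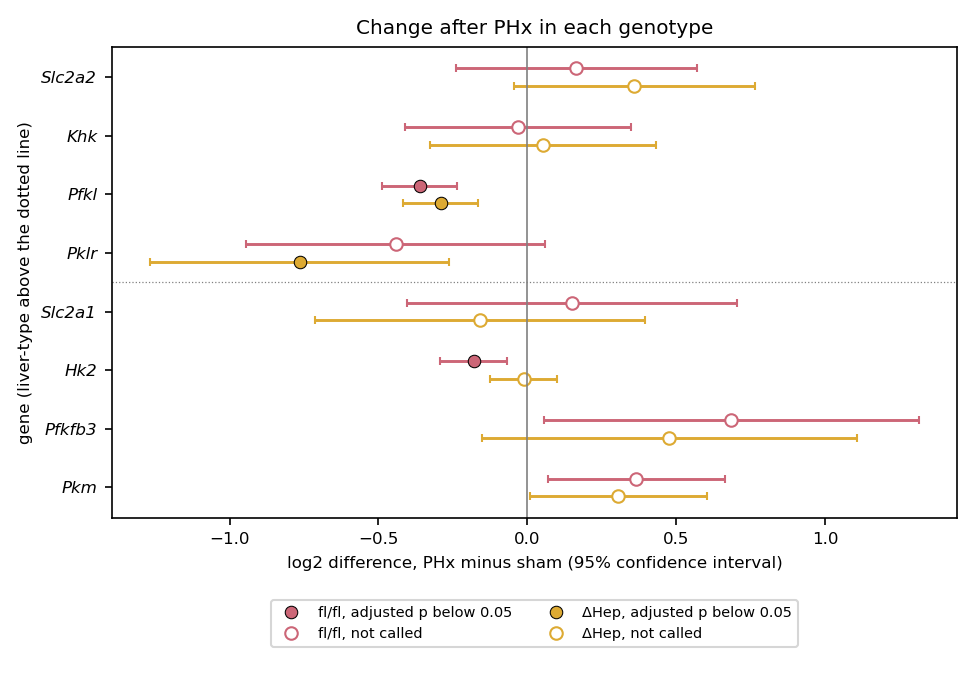
Difference between PHx and sham (log2 scale, limma estimate) of each gene in fl/fl and in ΔHep, with 95% confidence intervals; filled points are called. Pfkl lies left of 0 in both genotypes, and Pklr reaches -0.77 in ΔHep with an interval of -1.27 to -0.26. The intervals of Slc2a1, Slc2a2 and Khk cross 0 in both genotypes, as do those of Pklr in fl/fl and of Pfkfb3 and Hk2 in ΔHep.

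At the pyruvate kinase step the gene for the liver enzyme was lower and that for the M-type enzyme higher after PHx. Pklr, which makes pyruvate from phosphoenolpyruvate in liver and red cells, read 7.02, 7.12, 6.79 and 6.69 in sham fl/fl and 6.76, 7.46, 7.22 and 7.11 in sham ΔHep. After PHx it read 6.96, 6.40, 6.03 and 6.47 in fl/fl and 7.0, 6.13, 5.81 and 6.55 in ΔHep. In each genotype arrays 2, 3 and 4 lay under every sham array, and array 1 lay within the sham range. Pklr fell by 0.77 ± 0.24 in ΔHep (limma adjusted p = 0.0218), a 1.70-fold lower level, and differed by -0.44 ± 0.24 in fl/fl (adjusted p = 0.165). The genotypes' changes differed by -0.32 ± 0.33 (adjusted p = 0.764), so they are not shown to be unequal. Over both genotypes Pklr fell by 0.60 ± 0.17 (adjusted p = 0.00807), a call that was lost with cyclic loess scaling (-0.41, adjusted p = 0.0651) and held under the other 21 alternatives (adjusted p from 0.0014). The ΔHep call was lost with cyclic loess (-0.56, adjusted p = 0.0996) and without sham ΔHep array 2 or 3 or PHx ΔHep array 2 or 3. PHx ΔHep array 1 is also the array whose Ppara level, 6.26, lay within the PHx fl/fl range, though it lay within the sham ΔHep range as well. Without it the Pklr difference in ΔHep was -0.97 (limma adjusted p = 0.00367). Since this array had the highest Pklr of its group, leaving it out had to enlarge the fall, so no conclusion is drawn from that value. Red cells also use Pklr, and the mean of 2 of 6 listed erythroid markers was lower on PHx arrays (at most 4.97) than on sham arrays (at least 5.02). The part of this shift in the Pklr difference was not tested.

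Pkm, which encodes the M-type pyruvate kinases through alternative exons, had tight sham groups: 4.22, 4.36, 4.31 and 4.27 in fl/fl and 4.28, 4.33, 4.30 and 4.18 in ΔHep. After PHx it read 4.28, 4.87, 4.99 and 4.49 in fl/fl and 4.34, 4.43, 4.93 and 4.60 in ΔHep. Arrays 2, 3 and 4 of each PHx group lay above all 8 sham arrays, and array 1 of each did not. The SD rose from 0.06 in both sham groups to 0.33 and 0.26 after PHx. Pkm rose by 0.34 ± 0.10 over both genotypes (limma adjusted p = 0.0116), a call that held under all 22 alternatives run (adjusted p from 0.00118 to 0.0376). Taken singly the genotypes gave 0.37 ± 0.14 in fl/fl (adjusted p = 0.0563) and 0.31 ± 0.14 in ΔHep (adjusted p = 0.108). Both passed with cyclic loess scaling, at 0.51 (adjusted p = 0.0143) and 0.46 (adjusted p = 0.0241), in ranges of 0.0115 to 0.171 and 0.0241 to 0.311. The fl/fl difference also passed with the filter at the median level (adjusted p = 0.0478) and without PHx fl/fl array 1 (0.49, adjusted p = 0.0115) or array 4 (0.42, adjusted p = 0.0465). Arrays 1 and 4 had the lowest Pkm levels of that group, so leaving either out had to enlarge the rise. No conclusion is drawn from these omissions. The probe set covers the gene as a whole, so the adult and the fetal splice forms cannot be told apart. Macrophages also use Pkm, and the part of the macrophage marker shift given above in this difference was not tested.

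Read within each array, Pkm minus Pklr was -2.80, -2.76, -2.47 and -2.42 in sham fl/fl, -2.48, -3.14, -2.92 and -2.93 in sham ΔHep, -2.69, -1.53, -1.03 and -1.97 in PHx fl/fl and -2.66, -1.70, -0.88 and -1.95 in PHx ΔHep. Since probe sets differ in brightness, only its change is read, and the change from sham to PHx was 0.81 in fl/fl and 1.07 in ΔHep. Array 1 of each PHx group stayed within the sham range, and the other 6 PHx arrays lay above all sham arrays. The corresponding difference for Pfkfb3 with Pfkfb1 could not be formed, for lack of a probe set.

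The groups were also compared gene by gene for overlap. In fl/fl, 1 of the 8 genes (Pfkl) had PHx and sham arrays that did not overlap, where 32.0% of all genes tested did not. In ΔHep, 2 of the 8 (Pfkl lower and Pkm higher) did not overlap, where the share of all genes was 32.0% as well. Between genotypes, none of the 8 was free of overlap after sham (6.80% of all genes) or after PHx (3.73%).

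**Figure D3:**
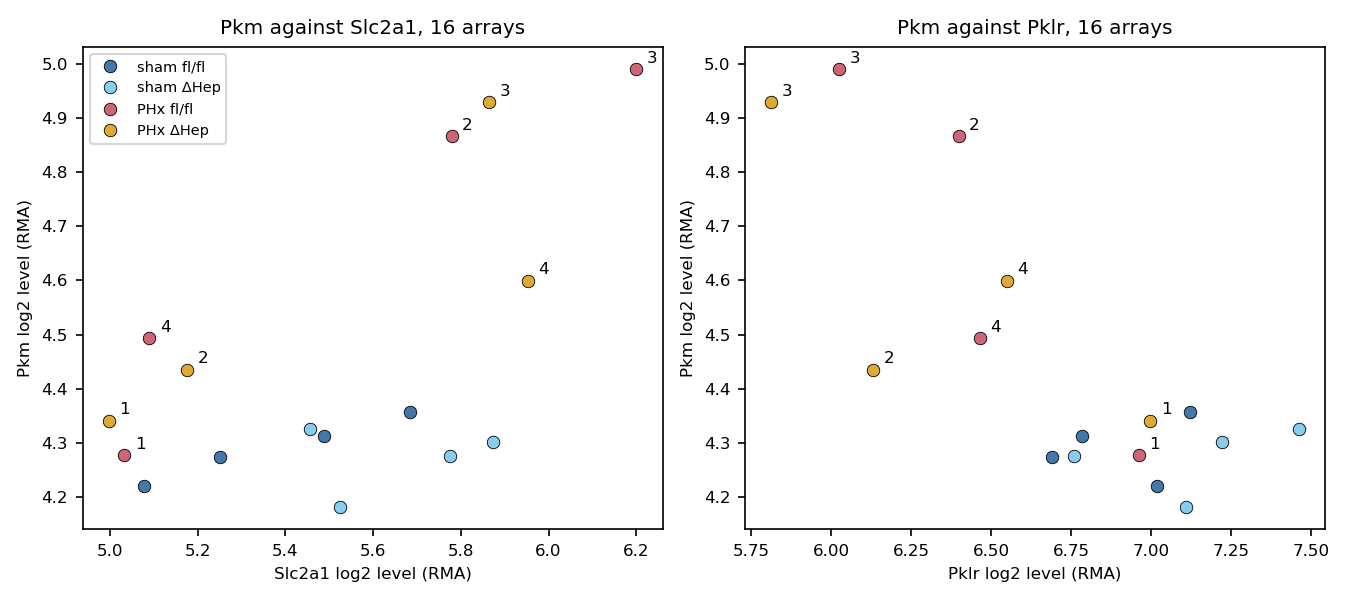
Pkm level against Slc2a1 level (left) and against Pklr level (right) on the 16 arrays (RMA values, log2 scale); colours mark the groups and the numbers the PHx arrays. Sham arrays lie between 4.18 and 4.36 for Pkm, while PHx arrays spread up to 4.99, with array 3 of each genotype at the top left of the right panel (Pklr 6.03 and 5.81).

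The spread among PHx arrays had an order that several genes shared. PHx array 3 of each genotype had the highest Pkm and the lowest Pklr, Slc2a2 and Pfkl of its group, and array 1 of each had the highest Pklr and the lowest Pkm and Slc2a1. The sample titles also carry numbers, whose meaning is not stated. By these, PHx fl/fl array 1 and PHx ΔHep arrays 1 and 2 precede all sham arrays, and the other PHx arrays follow them. The arrays that precede had the lowest Pkm and Hif1a levels of all PHx arrays. The part of this numbering in the shared order was not tested. In the fit with array weights, PHx fl/fl array 3 had the lowest weight of all arrays (0.499). PHx ΔHep array 3 had the highest weight of its group (0.957). Array 3 also had the lowest hepatocyte marker mean of each PHx group, at 10.10 in fl/fl and 10.05 in ΔHep. In fl/fl array 1 lay close to it, at 10.11. The part of array quality and of hepatocyte RNA in the shared order was not tested either. Over the 8 PHx arrays, Pkm and Slc2a1 correlated at r = 0.895 (exact permutation p = 0.00642) and rho = 0.881 (p = 0.00724). The r was 0.81 without the 2 arrays farthest from the median, and 0.963 and 0.812 within the 4 fl/fl and the 4 ΔHep arrays. Over the 8 sham arrays Pkm and Slc2a1 had r = 0.401. Slc2a1 and Hif1a had lower p over the PHx arrays, at r = 0.878 (exact permutation p = 0.00603) and rho = 0.905 (p = 0.00456). These arrays were examined after their values were seen. Of 44 relations computed, none passed after Benjamini-Hochberg adjustment (0.141 for r and 0.106 for rho of both pairs).

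Genotype made no difference to any of the 8 genes that the test could call. After sham, none was called (lowest limma adjusted p = 0.626), where 0.0133% of all genes were called, and the differences ran from -0.12 (Slc2a2) to 0.28 (Slc2a1). After PHx, none was called (lowest adjusted p = 0.794), where 0.143% of all genes were called, and the differences ran from -0.25 (Pfkfb3) to 0.089 (Khk). Over both operations, none was called (0.219% of all genes), with a lowest adjusted p of 0.994. The 95% intervals within an operation reached 0.11 (Hk2) to 0.63 (Pfkfb3) to either side of the estimate, so smaller effects of the genotype were not resolved, and at an unadjusted p under 0.05 the count was also 0 in these 3 comparisons. By limma the PHx change itself was not called different between genotypes for any of these genes (0% of all genes). At an unadjusted p under 0.05 Hk2 alone passed, with 0.17 ± 0.07 (limma unadjusted p = 0.0407, adjusted p = 0.424). No alternative, leaving out PHx ΔHep array 1 among them, called any of the 8 in these 4 comparisons.

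The other genes of the pathway were read from lists, of which the 8 genes are in part members. Of 29 glycolysis enzymes 23 were measured, and after PHx 1 was higher and 9 lower in fl/fl, with the same counts in ΔHep, where all genes were called higher and lower in 11.9% and 20.8% (fl/fl) and in 14.8% and 17.5% (ΔHep). These shares stand behind the counts of the other lists as well. Their median difference was -0.13 and -0.045, beside -0.040 and 0.0070 for all genes. Pfkm, the muscle subunit of phosphofructokinase, fell by 0.38 in fl/fl and by 0.54 in ΔHep, and the brain aldolase gene Aldoc by 0.41 and 0.56. Aldoa, the aldolase of muscle and fetal liver, rose by 0.51 ± 0.11 in fl/fl (limma adjusted p = 0.00275) and differed by 0.14 in ΔHep (adjusted p = 0.363), and the difference between these changes was not called (adjusted p = 0.395). In ΔHep the triose phosphate isomerase gene Tpi1 fell by 0.58 and Pgk1, phosphoglycerate kinase, by 0.32. Pfkp, the platelet subunit, was the gene called higher in ΔHep, by 0.14 (adjusted p = 0.0443), a call lost under both other scalings. The muscle gene Eno3 fell by 0.26 and 0.25, and Pgam2 by 0.27 in fl/fl. With cyclic loess the counts were 3 higher and 5 lower in fl/fl and 2 higher and 3 lower in ΔHep, and with array medians subtracted they were 0 higher and 17 lower in ΔHep. Gpi1, Eno1 and Pfkfb2 have no probe set of their own symbol. Genes with many processed copies in the genome, such as Tpi1, Pgk1 and Ldha, can share probe sequence with them.

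**Figure D4:**
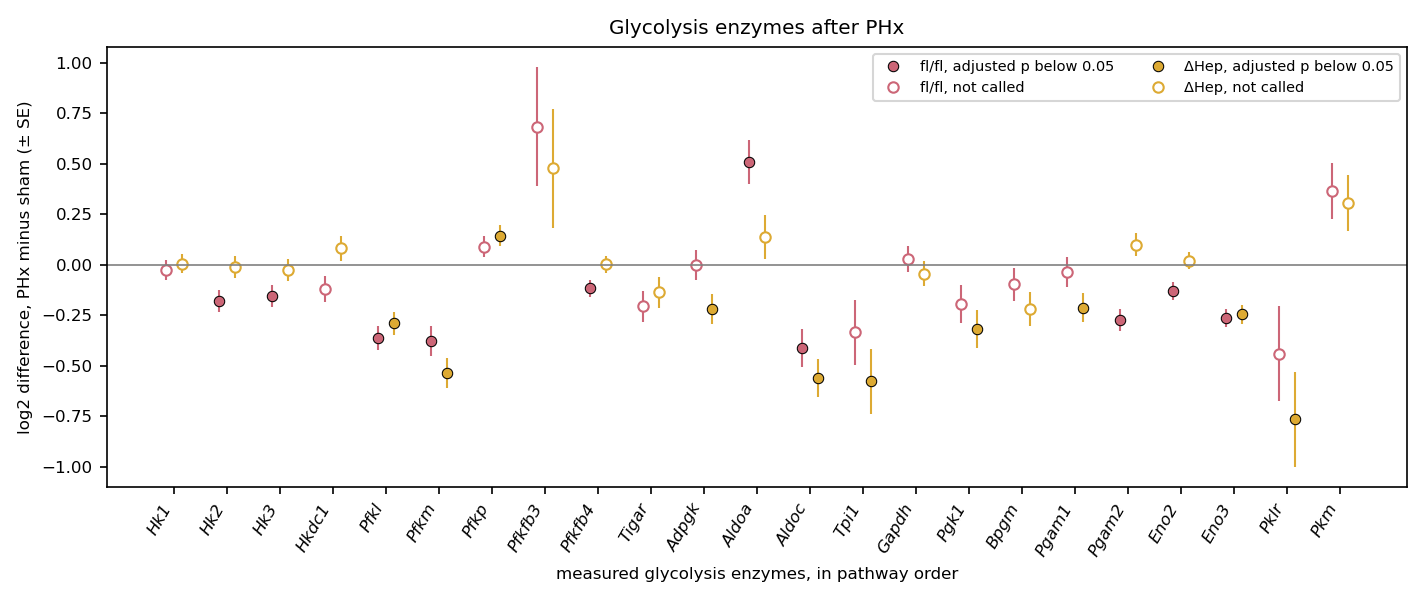
Difference between PHx and sham (log2 scale, limma estimate ± SE) of the 23 measured glycolysis enzymes, in the order of the pathway, for fl/fl and ΔHep; filled points are called. Most called points lie under 0, among them Pfkl and Pfkm in both genotypes, while Pfkfb3, Aldoa and Pkm lie above 0, of which Aldoa in fl/fl is called.

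Among 23 measured genes of sugar transport and entry, 1 was higher and 7 lower in fl/fl, and 2 higher and 7 lower in ΔHep (0 and 12 with array medians subtracted). Slc2a9, a urate and hexose transporter, fell by 0.76 and 0.84, and the galactose genes Galm and Galt by 0.75 and 0.53 in fl/fl and by 0.94 and 0.77 in ΔHep. Pmm2, which makes mannose 1-phosphate, fell by 0.60 and 0.77. Pgm2, a phosphoglucomutase, rose by 0.70 in fl/fl (limma adjusted p = 0.0417) and differed by 0.64 in ΔHep (adjusted p = 0.0608). The sodium-coupled transporters Slc5a9 and Slc5a2 rose by 0.18 and 0.12 in ΔHep, but neither was called with array medians subtracted, and Slc5a2 then had the opposite sign.

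Downstream, 3 of 23 measured genes of pyruvate and lactate handling were higher and 4 lower in fl/fl, and 2 higher and 8 lower in ΔHep. In fl/fl the balance turned to 6 higher and 1 lower with cyclic loess, and with array medians subtracted 7 were lower. Pdk4, the kinase that shuts pyruvate dehydrogenase during fasting, rose by 2.99 ± 0.59 in fl/fl (limma adjusted p = 0.0016) and differed by 1.12 in ΔHep (adjusted p = 0.165), and the difference between these changes was not called (adjusted p = 0.424). The monocarboxylate transporter gene Slc16a1 rose by 0.53 and mitochondrial Gpd2 by 0.42 in fl/fl. Cytosolic Gpd1 fell by 0.67 and 1.02, and Bsg, the chaperone of the lactate transporters, by 0.34 and 0.49. In ΔHep the lactate dehydrogenase genes moved apart, with Ldha, the M subunit, falling by 0.62 and Ldhb, the H subunit, rising by 0.30. Also in ΔHep Pdk2 fell by 1.32 and the phosphatase gene Pdp1 rose by 0.16, the latter not called with array medians subtracted. Pdk1 fell by 0.46 and 0.39, and the pyruvate carrier gene Mpc1 by 0.30 in fl/fl.

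**Figure D5:**
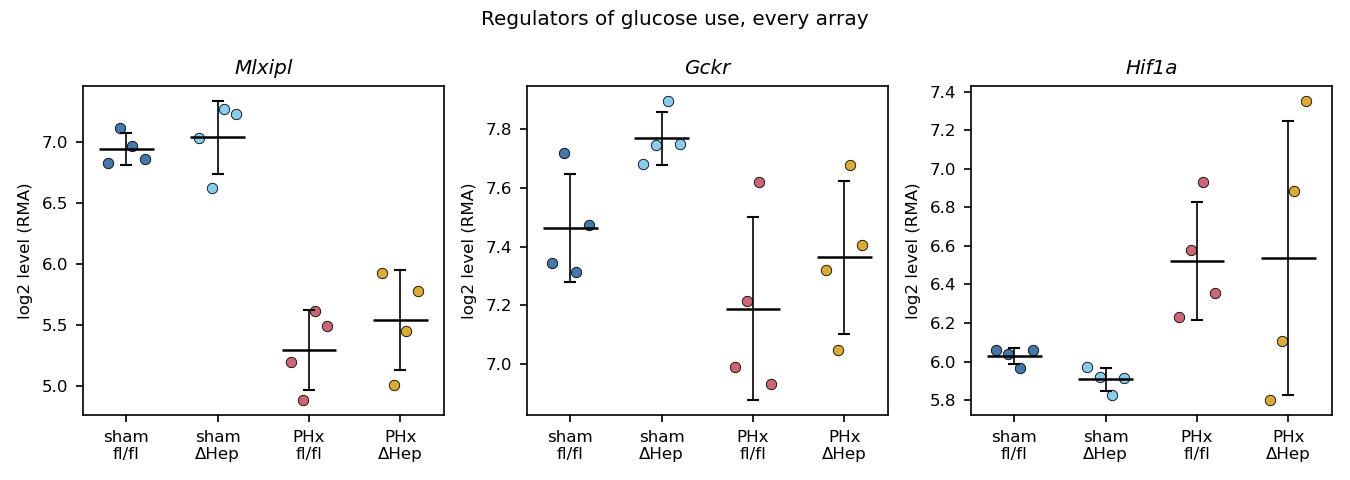
Level (RMA value, log2 scale) of Mlxipl, Gckr and Hif1a on every array by group; points are arrays, the long bar the mean and the whisker the SD of 4 arrays. Axes do not start at 0. Mlxipl falls from 6.62 to 7.27 over the 8 sham arrays to 4.88 to 5.92 over the 8 PHx arrays, and Hif1a spreads from 5.80 to 7.35 after PHx.

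Regulators of these genes were counted next. Of 21 measured, 1 was higher and 8 lower in fl/fl, and 0 higher and 10 lower in ΔHep, beside 11.9% and 20.8% of all genes in fl/fl and 14.8% and 17.5% in ΔHep. Mlxipl, which encodes ChREBP, the glucose-sensing activator of Pklr, read 6.83, 7.12, 6.97 and 6.86 in sham fl/fl, 7.03, 6.62, 7.27 and 7.23 in sham ΔHep, 5.20, 4.88, 5.62 and 5.49 in PHx fl/fl and 5.92, 5.0, 5.45 and 5.78 in PHx ΔHep. All PHx arrays lay under all sham arrays, with a fall of 1.65 ± 0.20 in fl/fl (limma adjusted p = 2.17e-05) and of 1.50 ± 0.20 in ΔHep (adjusted p = 4.98e-05). The insulin receptor substrate gene Irs1 fell by 0.94 and 1.35 and the liver factor Foxa2 by 0.54 and 0.74. Nr1h3, which encodes LXRα, fell by 0.46 and 0.71, and Onecut1 by 1.68 in ΔHep. Ppargc1a, the coactivator of gluconeogenesis, rose by 1.83 ± 0.44 in fl/fl (adjusted p = 0.00574) and differed by 0.65 in ΔHep (adjusted p = 0.278), with a difference between these changes that was not called (adjusted p = 0.499).

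Gckr, which encodes a regulatory protein of hepatic glucose phosphorylation, read 7.34, 7.72, 7.31 and 7.47 in sham fl/fl, 7.68, 7.75, 7.90 and 7.75 in sham ΔHep, 6.99, 7.22, 7.62 and 6.93 in PHx fl/fl and 7.32, 7.05, 7.68 and 7.41 in PHx ΔHep. It fell by 0.41 ± 0.15 in ΔHep (limma adjusted p = 0.0473), a call lost with cyclic loess scaling (-0.21, adjusted p = 0.346), and differed by -0.27 in fl/fl (adjusted p = 0.17). Hif1a, the oxygen-sensing activator of Slc2a1, Hk2, Pfkfb3 and Pkm, read 6.06, 6.04, 5.97 and 6.06 in sham fl/fl, 5.97, 5.92, 5.83 and 5.92 in sham ΔHep, 6.23, 6.58, 6.93 and 6.35 in PHx fl/fl and 5.80, 6.11, 6.89 and 7.35 in PHx ΔHep. Its RNA rose by 0.56 ± 0.18 over both genotypes (adjusted p = 0.0171), with ΔHep array 1 just under the sham range. Taken singly, neither genotype was called, with 0.49 in fl/fl (limma adjusted p = 0.144) and 0.63 in ΔHep (adjusted p = 0.0667). Over both genotypes Myc, another activator of glycolytic genes, rose by 0.45 (adjusted p = 0.0186). Myc was called in neither genotype alone, with 0.41 in fl/fl (limma adjusted p = 0.141) and 0.50 in ΔHep (adjusted p = 0.0764).

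Genes known as targets of these factors were counted too. Of 23 measured HIF-1 targets, which include Slc2a1, Hk2 and Pfkfb3, 2 were higher and 6 lower in fl/fl, and 0 higher and 9 lower in ΔHep, where 20.8% and 17.5% of all genes were lower. With cyclic loess 3 and 4 were lower. Adm, a hypoxia-induced peptide, rose by 0.76 in fl/fl, and the stress gene Ndrg1 fell by 1.09 and 1.54. The prolyl hydroxylase gene Egln1 fell by 0.32 and 0.56. In fl/fl the carbonic anhydrase gene Car9 fell by 0.18, and in ΔHep Egln3 fell by 0.91 and the collagen prolyl hydroxylase gene P4ha1 by 0.71. Of 20 measured ChREBP targets, which include Pklr, Khk and Slc2a2, 1 was higher and 4 lower in fl/fl, and 0 higher and 8 lower in ΔHep, beside the same shares of all genes. With cyclic loess 1 and 5 were lower. Txnip, a brake on glucose uptake, rose by 0.98 in fl/fl and differed by -0.26 in ΔHep, and the difference between these changes was not called (limma adjusted p = 0.327). The fatty acid elongase gene Elovl6 fell by 0.84 and 0.94, Acaca, acetyl-CoA carboxylase, by 0.40 and 0.52, and G6pc, which releases glucose from its phosphate, by 2.60 in ΔHep. With cyclic loess scaling the fl/fl calls of Bsg, Gpd1, Mpc1, Nr1h3, Egln1, Elovl6 and Acaca and the ΔHep calls of Tpi1, Pgk1, Slc5a9, Egln3, P4ha1 and Acaca were lost. Genes named with a value for 1 genotype alone were not called in the other, which does not show that the genotypes differ. No gene of these lists was called in any comparison between genotypes.

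For each of the 8 genes, the pair of protein-coding genes with the most similar pattern was taken by Pearson correlation over the 16 arrays, among 11039 genes at or above the median level. Pfkl was followed by Hook2 (r = 0.983) and Pdcd4 (0.977), Pklr by Itih4 (0.890) and Pld1 (0.882), and Pkm by Akr1b8 (0.973) and Itgav (0.957). Pfkfb3 was followed by Rcan1 (0.825) and Cdip1 (0.818), and Slc2a1 by Fbxw2 (0.924) and Gpalpp1 (0.909). The values were lower for Slc2a2, with Slc37a4 (0.732) and Ppy (0.721), and for Khk, with Bmf (0.802) and Limk1 (0.797). Hk2 was nearest to Camk2n2 (0.898) and Dtx2 (0.885), all of them levels that share the operation, the arrays and their background.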

How the data were processed

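Total RNA of mouse liver was measured on 16 Affymetrix arrays. The deposited table holds log2 values, and the submitters' processing notes name RMA as the method. Software, versions and the genome build: not given in the sources used here. Of 72688 probe sets, 30604 have 1 gene symbol, 2146 several and 39938 are unlisted. Symbols were updated to RefSeq (827 changed). For 355 genes with several probe sets, the one with the highest mean was used.

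Groups follow the labels. The 4 group means were estimated together with limma 3.58.1 (R 4.3.3; lmFit, eBayes; 12 residual degrees of freedom), and 7 comparisons were adjusted by Benjamini-Hochberg over 30142 genes at 0.05. The script was tested on simulated data. Precision is limited by the number of arrays. Since the labels do not state whether arrays came from separate mice, p-values reflect spread among these arrays only, which may be technical.

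The genes, lists and tests were chosen with earlier results of these data known. All 9 genes are named, with Gckr, Mlxipl and Hif1a, and of each list up to 4 called genes per comparison and direction with the largest differences. Alternatives were cyclic loess, subtraction of array medians, a filter at the median level, trended robust eBayes, array weights, fits of the compared groups only, every probe set on its own, and leaving out each array.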

Additional observations from a re-analysis of the deposited data

Results flagged for a closer look

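In 3 of 32 sets of 4 arrays (8 genes in 4 groups), 1 array lay far from the other 3 by Dixon's criterion, which chance meets in about 1 in 20 groups. The lowest array of Pfkl in sham ΔHep was at 4.60, the lowest of Pfkl in PHx fl/fl at 4.22, and the lowest of Hk2 in PHx ΔHep at 2.58. The Pfkl calls held without the first or the second of these arrays, and Hk2 in ΔHep was not called with or without the third.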

How the results depend on the processing

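Over the alternatives run, the fall of Pfkl in fl/fl and over both genotypes and the rise of Pkm over both genotypes were kept, and no comparison between genotypes called any of the 8 genes. Member calls that were lost or gained stand beside their results, and their cause was not tested. Subtracting array medians moved the median gene from 0.0070 to -0.12 in ΔHep and from -0.040 to -0.069 in fl/fl, so differences under it are read against that shift. Hk2, whose mean lies under the median level, has no value under the filter, and the filter's smaller number of genes gave 6492 calls in fl/fl, 6318 in ΔHep and 8636 over both. No paired analysis was possible because the labels carry no shared replicate numbers.

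Gene counts between genotypes moved: after sham 2 (medians subtracted), 24 (array weights), 38 (compared groups only) and 1 to 4 without an array (1 or 2 without sham ΔHep 1, 2 or 4 or sham fl/fl 1 or 3); after PHx 0 (compared groups only) and 14 to 127 (14 without PHx ΔHep 2, 17 and 21 without PHx fl/fl 1 and 4, 127 without PHx fl/fl 3); over both operations 100 (array weights) and 35 to 120 (35 to 43 without sham ΔHep 1, sham fl/fl 2 or 4 or PHx fl/fl 1, and 120 without PHx fl/fl 3); and for the difference of the PHx changes 0 to 2.

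With cyclic loess, list counts became 3 higher and 5 lower (fl/fl) and 2 and 3 (ΔHep) for glycolysis, 6 and 1 in fl/fl and 4 higher in ΔHep for pyruvate and lactate, 2 and 3 higher for regulators, 3 lower in fl/fl and 1 higher and 4 lower in ΔHep for HIF-1 targets, and 1 lower in fl/fl and 1 higher and 5 lower in ΔHep for ChREBP targets. With medians subtracted, they were 0 higher and 17 lower for glycolysis and 0 and 12 for sugar entry in ΔHep, and for pyruvate and lactate 7 lower in fl/fl and 1 higher in ΔHep.

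Uncalled differences changed sign as follows. With medians subtracted, Pfkl was 0.048 between genotypes after sham and -0.029 for the difference of changes, Khk -0.076 after PHx in ΔHep, -0.016 for the difference of changes and -0.068 over both, Pfkfb3 0.025 and Pkm 0.044 between genotypes after sham, and Hk2 0.0059 between genotypes over both operations. With cyclic loess, Khk was 0.15 in fl/fl, Slc2a1 0.044 in ΔHep and 0.18 over both genotypes, and Hk2 0.0042 between genotypes. With array weights, Khk was -0.020 over both genotypes, Slc2a2 -0.021 and Slc2a1 0.067 between genotypes after PHx, Pkm 0.0072 for the difference of changes and Hk2 0.0010 between genotypes.

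Leaving out 1 array gave these ranges. After PHx: Khk -0.19 to 0.067 (fl/fl), -0.076 to 0.14 (ΔHep) and -0.068 to 0.060 (both), Slc2a1 -0.075 to 0.31, -0.31 to 0.0080 and -0.12 to 0.079, and Hk2 -0.029 to 0.017 (ΔHep). Between genotypes after sham: Pfkl -0.038 to 0.018, Khk -0.15 to 0.13, Pfkfb3 -0.30 to 0.14 and Pkm -0.044 to 0.0099. Between genotypes after PHx: Pklr -0.30 to 0.097, Khk -0.032 to 0.17, Slc2a2 -0.043 to 0.31, Pkm -0.21 to 0.031 and Slc2a1 -0.19 to 0.20. Between genotypes over both operations: Pfkl -0.0038 to 0.036, Pklr -0.032 to 0.17, Khk -0.032 to 0.11, Slc2a2 -0.083 to 0.092, Pkm -0.11 to 0.0052 and Hk2 -0.022 to 0.011. For the difference of changes: Khk -0.045 to 0.24, Pfkfb3 -0.39 to 0.051 and Pkm -0.19 to 0.051.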
